A study of Homo sapiens with 4 samples.

Results

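The vacuolar H+-ATPase (V-ATPase) is the proton pump that acidifies lysosomes, endosomes and secretory vesicles. Its cytosolic V1 sector hydrolyses ATP, and its membrane V0 sector carries protons through a ring of c subunits past the a subunit. Assembly of V0 takes place in the endoplasmic reticulum with the help of dedicated factors, and the mammalian relatives of the yeast RAVE complex act in joining V1 to V0. Several subunits have paralogs, and paralogs of the a subunit direct the pump to different membranes. The pump is also part of the lysosomal surface on which Ragulator and the Rag GTPases recruit mTORC1.

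The genes described here are the 35 protein-coding genes, of 58884 genes in the table, whose symbol starts with ATP6V or ATP6AP or is TCIRG1, VMA21, TMEM199, CCDC115, WDR7, DMXL1, DMXL2 or ROGDI. They comprise 13 V1 subunit genes, 10 V0 subunit genes, 3 accessory genes, 3 assembly factor genes and 4 RAVE homologues. The name rule also took in ATP6V1FNB, a neighbour of ATP6V1F, and the read-through gene ATP6V1G2-DDX39B, neither of which is described as a pump subunit here. The members were chosen by these names and selected on the temperature values, namely lower ATP6V0C and higher ATP6V1G1 at 40 °C in both lines. The comparison of temperatures is therefore a description with no test. B-CPAP against TPC-1, which the choice did not use, was tested.

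B-CPAP and TPC-1 are established human lines of papillary thyroid carcinoma. The 4 libraries are B-CPAP at 40 °C, B-CPAP at 37 °C, TPC-1 at 40 °C and TPC-1 at 37 °C, 1 library each, from cells in submerged flasks. The labels give the exposure as 15 min, 20 min or 24 h in different places, so its length is not settled here. Whether libraries came from separate cultures beyond line and temperature is not given in the sources used here. Values are TPM, a level scaled by gene length and library total. Multiplying TPM by GENCODE 29 exon length gave 20706703 to 24468598 estimated reads per library. Of the thyrocyte markers checked, PAX8 stood at 98.9 and 111.9 TPM in B-CPAP (40 and 37 °C) and at 266.7 and 284.4 TPM in TPC-1. FOXE1 lay between 5.95 and 9.70 TPM in all libraries, NKX2-1 was seen in B-CPAP alone, and SLC5A5 was listed at 0 throughout. The leukocyte markers PTPRC and CD3E were listed at 0 in all 4 libraries. Summed TPM of the fibroblast markers was 42.0 and 33.9 in B-CPAP and 2.84 and 2.95 in TPC-1, and its part in the differences between lines was not tested. In bulk RNA, fewer cells of a type and less RNA per cell cannot be told apart.

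Promoter windows are shown for ATP6V0C, which the choice of members named, and for the 4 members whose window holds an E-box. The windows were thus picked by name or by motif, and a link to temperature was not tested. The windows come from RefSeq (GRCh38.p14) and run from 250 bases before to 50 bases after each start, 5′ to 3′ on the gene's strand. Capitals mark the E-box CACGTG, the core letters of the element bound by TFEB and TFE3, which are known activators of lysosomal genes.
ATP6V0C (chr16:2513476-2513775, plus strand): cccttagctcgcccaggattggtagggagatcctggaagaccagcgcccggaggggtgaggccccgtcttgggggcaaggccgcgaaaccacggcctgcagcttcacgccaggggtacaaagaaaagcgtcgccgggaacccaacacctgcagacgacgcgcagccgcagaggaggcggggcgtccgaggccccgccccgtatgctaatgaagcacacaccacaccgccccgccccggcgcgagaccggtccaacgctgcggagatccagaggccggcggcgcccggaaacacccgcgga
ATP6V0B (chr1:43974710-43975009, plus strand): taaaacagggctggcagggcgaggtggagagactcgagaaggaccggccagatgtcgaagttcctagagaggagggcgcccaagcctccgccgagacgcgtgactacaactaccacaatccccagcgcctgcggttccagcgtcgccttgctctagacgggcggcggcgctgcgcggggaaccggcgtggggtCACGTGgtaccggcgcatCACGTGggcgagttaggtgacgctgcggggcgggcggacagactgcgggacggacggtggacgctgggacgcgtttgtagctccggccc
ATP6V0D1 (chr16:67481108-67481407, minus strand): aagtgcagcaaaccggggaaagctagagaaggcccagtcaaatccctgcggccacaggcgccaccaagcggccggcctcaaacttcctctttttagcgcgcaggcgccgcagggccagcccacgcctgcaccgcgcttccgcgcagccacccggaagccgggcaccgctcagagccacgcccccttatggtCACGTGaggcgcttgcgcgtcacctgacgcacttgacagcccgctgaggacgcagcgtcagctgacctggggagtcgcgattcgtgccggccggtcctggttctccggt
ATP6V0E2 (chr7:149872718-149873017, plus strand): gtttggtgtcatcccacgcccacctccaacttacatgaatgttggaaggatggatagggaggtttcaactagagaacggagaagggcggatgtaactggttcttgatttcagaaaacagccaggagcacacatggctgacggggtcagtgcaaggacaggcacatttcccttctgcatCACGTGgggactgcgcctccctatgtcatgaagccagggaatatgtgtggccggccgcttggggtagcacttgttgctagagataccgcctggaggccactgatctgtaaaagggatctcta
ATP6V1G1 (chr9:114587519-114587818, plus strand): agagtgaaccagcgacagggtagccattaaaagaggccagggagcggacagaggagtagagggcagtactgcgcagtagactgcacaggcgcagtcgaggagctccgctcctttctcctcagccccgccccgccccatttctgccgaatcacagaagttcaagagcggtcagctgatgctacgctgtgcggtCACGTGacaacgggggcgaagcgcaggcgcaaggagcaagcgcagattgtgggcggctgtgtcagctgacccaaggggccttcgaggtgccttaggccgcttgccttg
A window was found for 24 of the 35 members. The E-box, read on both strands, was in 4 of these 24 (16.67%) and in 2548 of 35116 RefSeq promoters (7.26%). ATP6V0B held 2 copies, and each of the other 3 genes held 1. As given below, ATP6V0B, ATP6V0D1 and ATP6V0E2 were lower at 40 °C, while ATP6V1G1 was higher. The paired heat shock units GAANNTTC and TTCNNGAA, each read on both strands, were in 1 (ATP6V0A4) and 0 of the 24 windows, against 6.77% and 7.74% of all promoters. The ATP6V0C window ends before the GENCODE 29 start of that gene at 2513870. These are matches of letters and not sites.

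In the levels, V1 and V0 genes spanned a wide range in every library. With TPM, which is per length, the highest V1 gene was ATP6V1F, whose product is a small subunit of the central stalk. It stood at 769.9 and 946.5 TPM in B-CPAP at 40 and 37 °C, and at 177.9 and 215.0 TPM in TPC-1. ATP6V1F made up 52.4 and 61.9% of summed V1 TPM in B-CPAP and 28.4 and 34.2% in TPC-1. The exon lengths count all annotated exons of a gene, 789 bases for ATP6V1F and 7816 for ATP6V1B2. By estimated reads ATP6V1B2 exceeded ATP6V1F, at 8296 against 4250 in B-CPAP at 40 °C. The ranking of genes, the sums and the paralog shares of TPM depend on these lengths. The highest V0 gene was ATP6V0E1, for the small e subunit, at 431.8 and 420.0 TPM in B-CPAP and 376.0 and 371.1 TPM in TPC-1. Summed TPM of the V1 genes was 1.97 and 1.78 times that of the V0 genes in B-CPAP, and 1.08 and 1.01 times in TPC-1. The 4 RAVE homologues were low, between 1.88 and 11.9 TPM in any library.

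**Figure D1:**
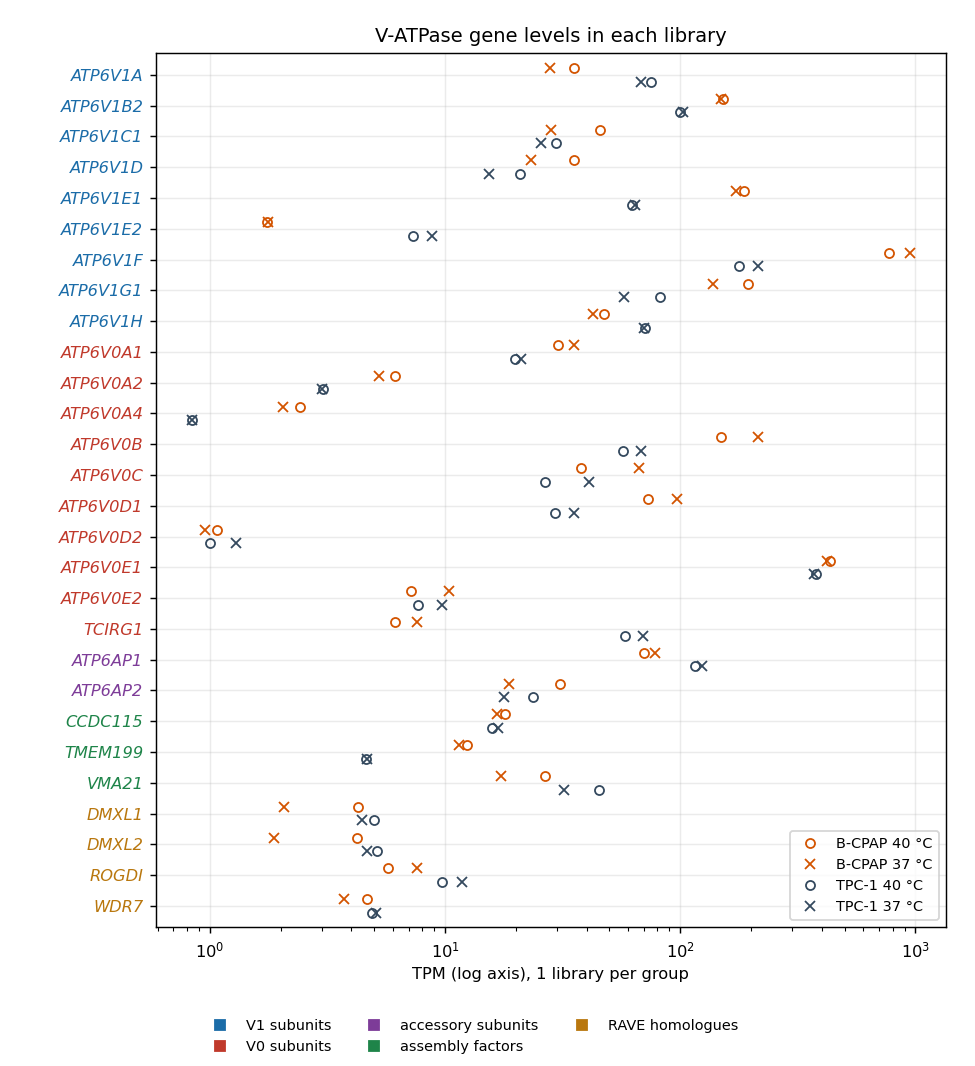
TPM on a log axis for the 28 members with a mean of at least 1 TPM, 1 point per library (circles 40 °C, crosses 37 °C; orange B-CPAP, dark TPC-1). TCIRG1 lies between 6.11 and 7.63 TPM in B-CPAP, far left of TPC-1, and ATP6V1F reaches 946.5 TPM in B-CPAP.

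A mean of at least 1 TPM over the 4 libraries was reached by 28 members. ATP6V0A4, the a4 paralog known from kidney intercalated cells, passed through B-CPAP alone, since it stood at 0.84 TPM in both TPC-1 libraries. The 7 members below this level were the kidney B1 gene ATP6V1B1, ATP6V1C2, ATP6V1G2, ATP6V1G3, ATP6AP1L, ATP6V1FNB and ATP6V1G2-DDX39B. Of these, ATP6V1G3 and ATP6V1G2-DDX39B were listed at 0 in all libraries and ATP6V1B1 at 0 in both B-CPAP libraries. The highest value among the 7 was 1.19 TPM, for ATP6V1C2 in TPC-1 at 40 °C.

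At 40 °C most V0 genes stood lower in both lines, while the V1 genes had no shared direction. Of the 10 V0 genes, 4 were higher and 6 lower in B-CPAP (median log2 difference -0.25), and 2 were higher and 8 lower in TPC-1 (median -0.22). Of the 9 measured V1 genes, 7 were higher and 2 lower in B-CPAP (median 0.15), and 5 were higher and 4 lower in TPC-1 (median 0.01). Of all 14912 genes with a mean of at least 1 TPM, 8682 were higher and 5987 lower in B-CPAP (median 0.09), and 8104 were higher and 6334 lower in TPC-1 (median 0.03). The choice of members used these values, so nothing is read from the counts. Differences are of log2(TPM + 1), which understates changes of low genes. Centring each library on its median moved all differences down by 0.18 in B-CPAP and 0.09 in TPC-1. The V0 medians were then -0.44 and -0.31, and the V1 medians turned negative, at -0.04 and -0.08.

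A difference of 1.5-fold was reached by few members. In B-CPAP 6 of 28 were higher, where 12.6% of all genes and 11.0% of protein-coding genes were, and 1 was lower, where 2.97% and 0.854% were. In TPC-1 0 of 28 were higher, where 5.4% and 1.51% were, and 1 was lower, where 2.49% and 0.414% were. The choice of members used this contrast, so nothing is read from these counts. The 6 in B-CPAP were ATP6V1C1, ATP6V1D, ATP6AP2, VMA21, DMXL1 and DMXL2. The lower gene was ATP6V0C in both lines, which 0.449% of all genes and 0.0423% of protein-coding genes were at this size. No member was 1.5-fold higher in both lines, where 1.48% and 0.482% were. At any size, 11 of 28 members were higher in both lines (41.6% of all genes, 43.3% of protein-coding genes), 10 were lower in both (27.1% and 30.5%) and 7 went opposite ways. Exact (Clopper-Pearson) 95% intervals of the TPM ratio were taken from estimated reads. They cover counting error only, compare 2 libraries and hold no spread between cultures. The interval lay above 1 in both lines for 6 members and below 1 in both lines for 8. The share of all genes with such intervals was not counted, so nothing is read from these counts either. None of the 28 had an interval above 1 in one line and below 1 in the other.

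**Figure D2:**
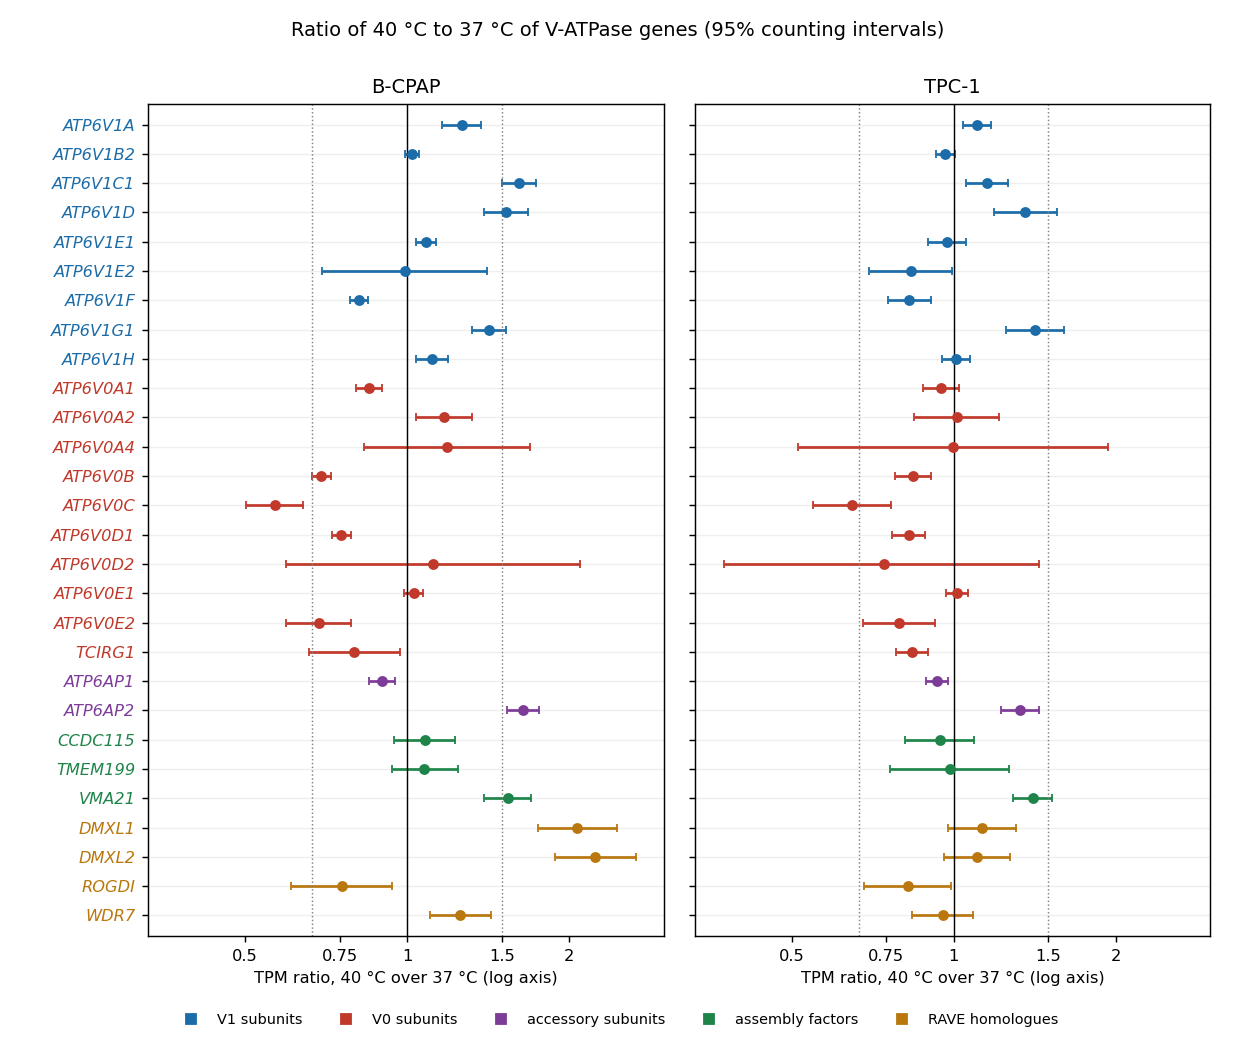
TPM ratio of 40 °C over 37 °C on a log axis for the 28 members, B-CPAP left and TPC-1 right; bars are 95% counting intervals and dotted lines mark 1.5-fold. ATP6V0C is farthest left in both lines (0.567 and 0.647), and DMXL1 and DMXL2 pass 2 in B-CPAP alone.

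ATP6V0C (ENSG00000185883, chromosome 16, 2513870 to 2520218 on GRCh38) encodes the c subunit of the proton-carrying ring. It stood at 37.9 TPM at 40 °C against 66.8 TPM at 37 °C in B-CPAP (ratio 0.567, interval 0.501 to 0.641), and at 26.5 against 41.1 TPM in TPC-1 (ratio 0.647, interval 0.547 to 0.765). The 40 °C library was lower in both lines. ATP6V0C rested on 397 and 747 estimated reads in B-CPAP and 230 and 372 in TPC-1. In GENCODE 29, 57.54% of its exon bases also belong to a read-through gene, AC093525.2, which was listed at 0 to 0.09 TPM. How reads on shared bases were counted is not given in the sources used here, so the level of ATP6V0C is uncertain. Its pseudogene copies, with those of ATP6V0E1, ATP6V1E1 and ATP6V1G1 (18 copies), reached at most 1.53 TPM.

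Other V0 genes with low ratios were those of the ring subunit c″ and of the d and e subunits. ATP6V0B, for c″, stood at 148.9 TPM at 40 °C against 215.1 TPM at 37 °C in B-CPAP (ratio 0.692, interval 0.664 to 0.722), and at 57.1 against 68.0 TPM in TPC-1 (ratio 0.841, interval 0.778 to 0.909). ATP6V0D1, for the d subunit that joins the ring to the stalk, stood at 73.2 against 97.1 TPM in B-CPAP and at 29.2 against 35.5 TPM in TPC-1. Both genes were lower in both 40 °C libraries. For ATP6V0E2, 12.8% of exon bases lie opposite ATP6V0E2-AS1, which stood at 0.53 to 2.52 TPM, so its reads may include some of that gene. ATP6V0E2, the minor e paralog, stood at 7.14 against 10.4 TPM in B-CPAP and at 7.67 against 9.67 TPM in TPC-1. In contrast to these, ATP6V0E1 had ratios of 1.03 and 1.01 in B-CPAP and TPC-1, with intervals that included 1 in both. Relative to genes of like GC content, however, ATP6V0E1 too was lower at 40 °C in both lines, as given below. For the near-absent ATP6V0D2, which is known from osteoclasts, 17 to 24 estimated reads per library gave wide intervals that included 1.

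Among V1 genes, ATP6V1G1 (ENSG00000136888, chromosome 9, 114587746 to 114598373), for a subunit of the peripheral stalk, was the other gene named in the choice. It stood at 194.7 TPM at 40 °C against 137.3 TPM at 37 °C in B-CPAP (ratio 1.42, interval 1.32 to 1.52), and at 81.9 against 57.9 TPM in TPC-1 (ratio 1.42, interval 1.252 to 1.601). It was higher in the 40 °C library of both lines. ATP6V1D, for a central stalk subunit, stood at 35.4 against 23.2 TPM in B-CPAP (ratio 1.53) and at 20.9 against 15.4 TPM in TPC-1 (ratio 1.36). ATP6V1C1, for the C subunit released when the pump comes apart, stood at 45.5 against 28.2 TPM in B-CPAP (ratio 1.61) and at 29.6 against 25.7 TPM in TPC-1 (ratio 1.15). ATP6V1A, for the catalytic A subunit, had ratios of 1.26 and 1.10. All of these had intervals above 1 in both lines.

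The V1 genes did not move as a block. ATP6V1F was lower at 40 °C, with ratios of 0.813 in B-CPAP (interval 0.781 to 0.847) and 0.827 in TPC-1 (interval 0.754 to 0.908). In GENCODE 29, 23.7% of its exon bases lie opposite exons of KCP, which reached at most 1.07 TPM, and the library kit does not mark strand. More highly expressed neighbours lie opposite parts of other V1 genes. EIF2S1, at 40.96 to 65.8 TPM, lies opposite 6.33% of the exon bases of ATP6V1D, and RHOQ, at 8.65 to 26.1 TPM, lies opposite 2.93% of those of ATP6V1E2. The levels of ATP6V1D and ATP6V1E2 are therefore uncertain. The share of exon bases does not give the extent, which also depends on the neighbour's level. In B-CPAP at 40 °C RHOQ stood at 26.1 TPM and ATP6V1E2 at 1.75 TPM. PDIA6, at 109.1 to 216.1 TPM, lies opposite 29.66% of the exon bases of ATP6V1C2. NFKBIL1, at 20.97 to 44.36 TPM, lies opposite 9.41% of those of ATP6V1G2. The few reads of ATP6V1C2 and ATP6V1G2, both under a mean of 1 TPM, may therefore include some of those genes. The part of all these neighbours was not tested. ATP6V1B2, the partner of the A subunit in the catalytic head, had ratios of 1.02 and 0.964 with intervals that included 1. ATP6V1E1 and ATP6V1H, the peripheral stalk and regulatory subunits, had ratios of 1.08 and 1.11 in B-CPAP and of 0.970 and 1.01 in TPC-1, where intervals included 1. Their direction and that of ATP6V1B2 changed with the scaling of the libraries: centred on the library median, ATP6V1E1, ATP6V1H and ATP6V1B2 in B-CPAP were at -0.07, -0.04 and -0.15 on the log2 scale.

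Of the accessory genes, ATP6AP2, which encodes the prorenin receptor, stood at 30.9 TPM at 40 °C against 18.8 TPM at 37 °C in B-CPAP (ratio 1.64, interval 1.53 to 1.76), and at 23.6 against 17.8 TPM in TPC-1 (ratio 1.33, interval 1.22 to 1.44). ATP6AP1, for the accessory subunit Ac45, had ratios of 0.898 and 0.933, with both intervals below 1. Thus the 40 °C libraries held more ATP6AP2 and less ATP6AP1 in both lines. Of the assembly factors, which act in the endoplasmic reticulum, VMA21 stood at 26.5 against 17.3 TPM in B-CPAP (ratio 1.54) and at 45.1 against 32.2 TPM in TPC-1 (ratio 1.40). The other factors TMEM199 and CCDC115 had ratios of 0.943 to 1.08, and all of their intervals included 1. IMP4, at 55.4 to 166.3 TPM, lies opposite 3.31% of the exon bases of CCDC115. The reads of CCDC115 may include some of IMP4, which was not tested.

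Among the RAVE homologues, DMXL1 and DMXL2, the large scaffold proteins also called rabconnectins, had the highest ratios of all members in B-CPAP. DMXL2 stood at 4.21 TPM at 40 °C against 1.88 TPM at 37 °C in B-CPAP (ratio 2.24, interval 1.88 to 2.67), and at 5.15 against 4.67 TPM in TPC-1 (ratio 1.10, interval 0.958 to 1.27). DMXL1 stood at 4.28 against 2.07 TPM in B-CPAP (ratio 2.07, interval 1.75 to 2.46), and at 4.99 against 4.42 TPM in TPC-1 (ratio 1.13, interval 0.975 to 1.30). The B-CPAP library at 37 °C held the lowest level of both genes, and the other 3 libraries lay between 4.21 and 5.15 TPM. WDR7, the partner of the rabconnectins, had ratios of 1.26 and 0.954, and ROGDI of 0.755 and 0.821. TXNL1, at 19.95 to 34.3 TPM, lies opposite 1.49% of the exon bases of WDR7, whose reads may include some of that gene. With 1 library per group, the difference between the lines' responses was not tested.

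The temperature differences of the members followed the GC content of their exons. Spearman's rho with GC content across the 28 members, which is a description, was -0.85 in B-CPAP and -0.83 in TPC-1. It was -0.81 and -0.59 across 11819 protein-coding genes, which share these libraries. The 6 members with intervals above 1 in both lines had GC contents of 39.0 to 45.0%, and the 8 with intervals below 1 in both had 50.4 to 65.7%. V1 genes had a median GC content of 43.3%, V0 genes of 50.2%.

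**Figure D3:**
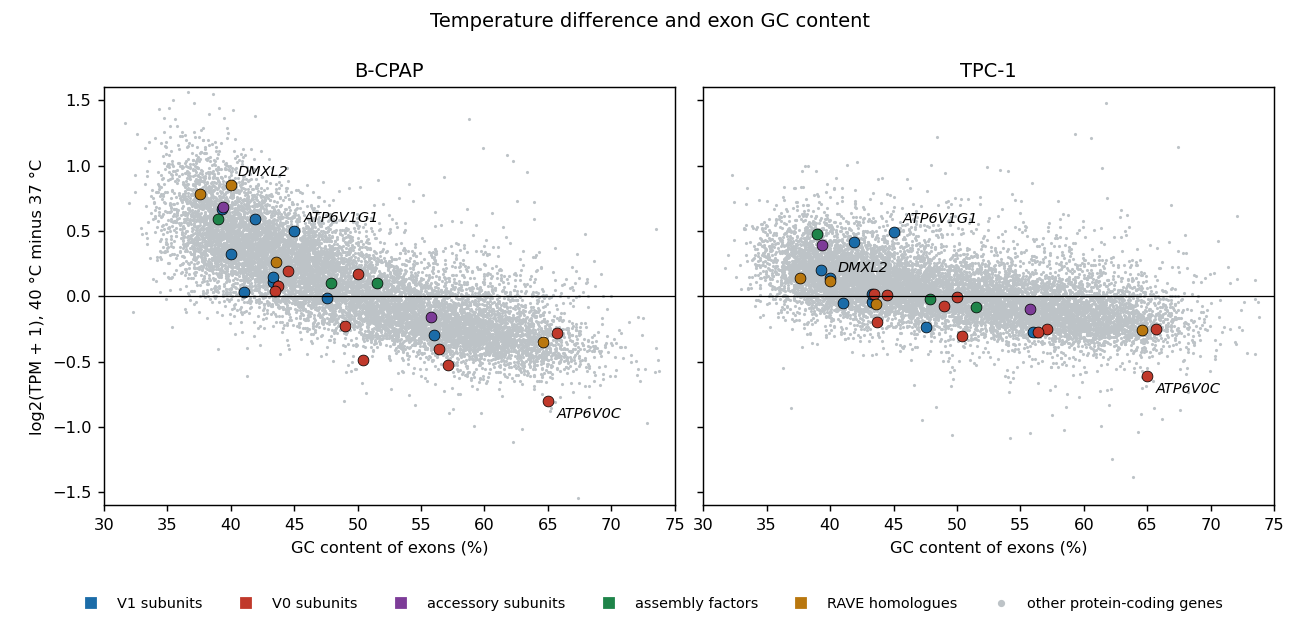
Difference of log2(TPM + 1), 40 °C minus 37 °C, against exon GC content in %, B-CPAP left and TPC-1 right; grey points are protein-coding genes within the axes and coloured points the 28 members. Members fall along the slope of the other genes, and ATP6V0C, the gene with a log2 difference of -0.80 in B-CPAP and -0.61 in TPC-1, lies near or below its lower edge.

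Values were also taken relative to protein-coding genes of like GC content. The V1 median was then -0.15 in B-CPAP and -0.12 in TPC-1, and the V0 median -0.26 and -0.13. ATP6V0C remained lower at 40 °C, at -0.47 in B-CPAP and -0.44 in TPC-1, against -0.80 and -0.61 without the adjustment. ATP6V1G1 was at 0.24 and 0.39, against 0.50 and 0.49 without it. Of the 6 members with intervals above 1 in both lines, 5 were above 0 in B-CPAP and 4 in TPC-1 after the adjustment. ATP6V1A turned to -0.15 and -0.05, and ATP6V1C1 was at 0.16 and -0.00. VMA21 was at 0.07 in B-CPAP and 0.27 in TPC-1, against 0.59 and 0.48 without the adjustment. ATP6V1D was at 0.19 and 0.26, and ATP6AP2 at 0.18 and 0.19. Of the 8 with intervals below 1, TCIRG1 and ATP6AP1 were above 0 in B-CPAP, at 0.06 and 0.00, and 0 were in TPC-1. DMXL1 and DMXL2 were at 0.20 and 0.37 in B-CPAP after the adjustment, and at -0.09 and -0.07 in TPC-1. ATP6V0E1 and ATP6V1B2, with ratios near 1 before it, were at -0.285 and -0.401 in B-CPAP and at -0.109 and -0.219 in TPC-1. These 4 genes are among the 14 members in neither group, of which 4 were above 0 in B-CPAP and 0 in TPC-1.

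The lines differed in their choice of a-subunit paralog. TCIRG1 (ENSG00000110719, chromosome 11, 68039016 to 68050895) encodes a3, the paralog of osteoclast ruffled borders and secretory lysosomes. It stood at 6.11 and 7.63 TPM in B-CPAP at 40 and 37 °C, and at 58.4 and 69.7 TPM in TPC-1. The lines did not overlap, and the log2 difference between them was -3.05 ± 0.11 (SE, 2 libraries per line; limma adjusted p = 6.28e-05), lower in B-CPAP at both temperatures. ATP6V0A1, for the widely expressed a1, stood at 30.1 and 35.5 TPM in B-CPAP against 19.9 and 21.0 TPM in TPC-1 (log2 difference 0.65 ± 0.11 SE, limma adjusted p = 0.00554). ATP6V0A2, for the Golgi and endosomal a2, stood at 6.13 and 5.25 TPM against 3.03 and 2.99 TPM (0.73 ± 0.18 SE, limma adjusted p = 0.017). TCIRG1 thus took 13.6 and 15.1% of the a-subunit TPM in B-CPAP and 71.1 and 73.7% in TPC-1, and ATP6V0A1 67.3 and 70.4% in B-CPAP and 24.2 and 22.2% in TPC-1. ATP6V0A4 stood at 2.43 and 2.05 TPM in B-CPAP against 0.840 and 0.842 TPM in TPC-1, on few reads, and its test between lines is not used because it passed the filter through B-CPAP. At 40 over 37 °C, the TPM ratios in B-CPAP and TPC-1 were 0.798 and 0.838 for TCIRG1, 0.848 and 0.948 for ATP6V0A1, and 1.17 and 1.01 for ATP6V0A2. The leading paralog was the same at both temperatures within each line.

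**Figure D4:**
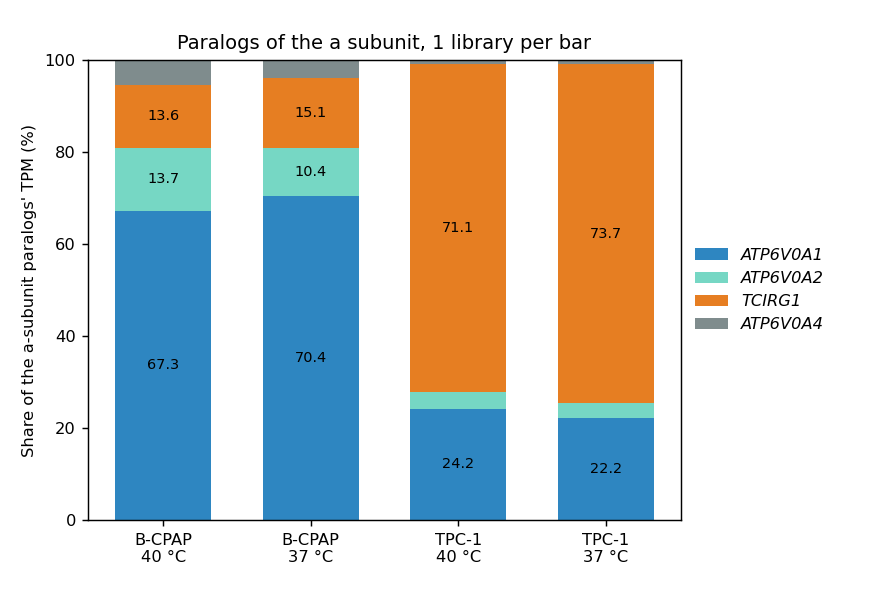
Share in % of the summed TPM of the 4 a-subunit paralogs, 1 bar per library. ATP6V0A1 takes 67.3 and 70.4% in B-CPAP, and TCIRG1 71.1 and 73.7% in TPC-1.

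For the other subunits with paralogs, the same gene led in every library. ATP6V1B2 took at least 99.7% of the B subunit TPM, ATP6V1G1 at least 99.37% of the G subunit TPM, and ATP6V0D1, ATP6V0E1 and ATP6V1C1 at least 96.15% each of theirs. The E subunit differed between lines. ATP6V1E2, the E paralog known mainly from testis, stood at 1.75 and 1.77 TPM in B-CPAP and at 7.34 and 8.82 TPM in TPC-1, which was 0.931 and 1.02% of E subunit TPM in B-CPAP and 10.6 and 12.1% in TPC-1. DMXL1 took 50.4 and 52.3% of the summed TPM of DMXL1 and DMXL2 in B-CPAP and 49.2 and 48.6% in TPC-1.

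Between the lines, limma, with temperature as a block, called 13 of 28 members higher in B-CPAP and 7 lower (Benjamini-Hochberg adjusted p under 0.05 over 14912 genes). Of all genes 29.9% were called higher and 32.8% lower, 62.7% in all, and of protein-coding genes 30.7% and 34.9%, or 65.6% in all. The 20 members called are therefore near the background, and the number called is no feature of these genes. The fit has 1 residual degree of freedom per gene, and its spread is how far the response to temperature differs between lines, with no spread between cultures. Leaving out 1 library, with line as the factor and no block, gave 8 higher and 6 lower without B-CPAP at 40 °C, 7 and 5 without B-CPAP at 37 °C, and 2 and 2 without either TPC-1 library. The lone library of a line is then assumed to vary like the other line. The shares of all genes called in these fits were not counted, so the loss of calls is not read as a feature of these members. DMXL2 is among the 6 lower without B-CPAP at 40 °C, though it was not called with all libraries. Of the 20 called members, TCIRG1, ATP6V1F, ATP6V1E1 and ATP6V1E2 were called in each of these 4 fits, 7 in 2 fits, 3 in 1 and 6 in 0. The 13 higher members include ATP6V0A4, which passed the filter through B-CPAP alone, so 12 others are left.

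**Figure D5:**
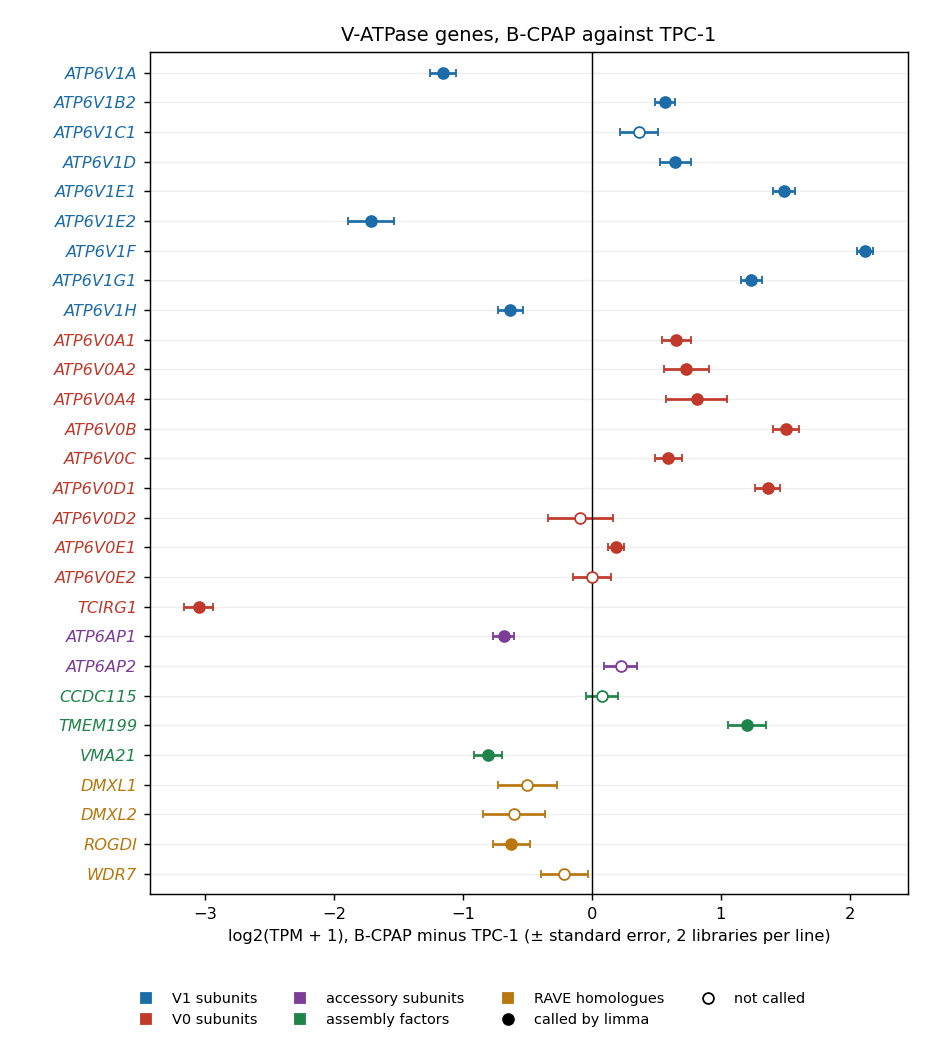
Difference of log2(TPM + 1), B-CPAP minus TPC-1, for the 28 members with standard errors over 2 libraries per line; filled points passed limma's adjusted p of 0.05 (ATP6V0A4 passed the filter through B-CPAP alone). ATP6V1F is farthest right at 2.12 and TCIRG1 farthest left at -3.05.

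Of the 10 V0 genes, 6 were called higher in B-CPAP besides ATP6V0A4, 1 (TCIRG1) was called lower and 2 were not called, where 29.9% of all genes were called higher and 32.8% lower. Of the 6, ATP6V0B was called in 2 of the 4 fits that left out 1 library, ATP6V0A1, ATP6V0A2 and ATP6V0D1 in 1 each, and ATP6V0C and ATP6V0E1 in 0. ATP6V0B was 1.51 ± 0.10 (SE) higher on the log2 scale in B-CPAP than in TPC-1 (limma adjusted p = 0.000299), and ATP6V0D1 by 1.36 ± 0.10 (limma adjusted p = 0.000342). ATP6V0C was 0.59 ± 0.11 higher (limma adjusted p = 0.00619), at 37.9 and 66.8 TPM in B-CPAP against 26.5 and 41.1 TPM in TPC-1. The lines' libraries of ATP6V0C overlapped, since TPC-1 at 37 °C exceeded B-CPAP at 40 °C, and in the fits that left out 1 library the gene was not called (limma adjusted p = 0.168 to 0.714). ATP6V0E1 was 0.19 ± 0.06 higher (limma adjusted p = 0.0482), and it too was not called in those fits.

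Of the 9 V1 genes 5 were called higher in B-CPAP, 3 lower and 1 was not called, against the same shares of all genes. ATP6V1F was 2.12 ± 0.06 higher on the log2 scale (limma adjusted p = 3.91e-05), with TPM ratios of 4.33 at 40 °C and 4.40 at 37 °C. ATP6V1E1 was 1.49 ± 0.09 higher (limma adjusted p = 0.000198), at 186.4 and 172.2 TPM in B-CPAP against 62.2 and 64.1 TPM in TPC-1. ATP6V1G1 was 1.24 ± 0.08 higher (limma adjusted p = 0.000264), with non-overlapping lines, but was not called in the fits that left out 1 library (limma adjusted p = 0.0602 to 0.127). The catalytic ATP6V1A was lower in B-CPAP, at 35.3 and 28.0 TPM against 74.9 and 67.8 TPM in TPC-1 (-1.16 ± 0.10 SE, limma adjusted p = 0.000626), while its partner ATP6V1B2 was higher, at 151.7 and 148.4 against 99.3 and 103.0 TPM (0.56 ± 0.08 SE, limma adjusted p = 0.00277). ATP6V1E2 fell by 1.71 ± 0.18 (SE) on the log2 scale in B-CPAP relative to TPC-1 (limma adjusted p = 0.0011), and ATP6V1H was -0.63 ± 0.10 apart (limma adjusted p = 0.00348).

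Among the remaining members TMEM199 was higher in B-CPAP, at 12.4 and 11.5 TPM against 4.59 and 4.68 TPM in TPC-1 (1.20 ± 0.15 SE, limma adjusted p = 0.0018). In the opposite direction, VMA21 stood at 26.5 and 17.3 against 45.1 and 32.2 TPM (-0.80 ± 0.11 SE, limma adjusted p = 0.00238), but it was not called in the fits that left out 1 library (limma adjusted p = 0.106 to 0.349). ATP6AP1 stood at 70.4 and 78.5 against 115.9 and 124.3 TPM (-0.68 ± 0.08 SE, limma adjusted p = 0.00166), and ROGDI at 5.74 and 7.61 against 9.73 and 11.9 TPM (-0.62 ± 0.14 SE, limma adjusted p = 0.0143). ROGDI was not called in the fits that left out 1 library (limma adjusted p = 0.0963 to 0.373), and TMEM199 and ATP6AP1 were called in 2 of the 4. DMXL1, DMXL2, WDR7, CCDC115, ATP6AP2, ATP6V1C1, ATP6V0D2 and ATP6V0E2 were not called, which does not show that the lines had equal levels.

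Other lysosomal genes were read from 5 lists. At 40 °C, 1.5-fold was passed in B-CPAP by 3 of 13 Ragulator and Rag genes, 1 of 29 hydrolases, 2 of 20 membrane proteins and ion carriers and 1 of 4 TLDc genes on the higher side, and by 1 membrane gene on the lower side. Of all genes 12.6% were higher and 2.97% lower at this size in B-CPAP. In TPC-1 no gene of these lists, nor of the 3 measured MiT/TFE genes, passed it. There, 5.4% of all genes were higher and 2.49% lower at this size, and 1.51% and 0.414% of protein-coding genes. LAMTOR3, a Ragulator subunit, stood at 10.6 TPM at 40 °C against 5.54 TPM at 37 °C in B-CPAP and at 6.90 against 4.88 TPM in TPC-1. OSTM1, the partner of the chloride carrier CLCN7, stood at 35.5 against 20.6 TPM in B-CPAP and at 12.2 against 8.29 TPM in TPC-1. In contrast, CLCN7 stood at 50.3 against 64.9 TPM in B-CPAP and at 22.4 against 28.0 TPM in TPC-1. TMEM175, a lysosomal ion channel, stood at 4.22 against 6.88 TPM in B-CPAP and at 4.87 against 6.21 TPM in TPC-1. Log2 differences of LAMTOR3, OSTM1, CLCN7 and TMEM175 in B-CPAP were 0.833, 0.753, -0.363 and -0.594. Relative to protein-coding genes of like GC content, they were 0.253, 0.220, -0.053 and -0.315 in B-CPAP. The adjusted values in TPC-1 were 0.193, 0.295, -0.144 and -0.150. Median log2 differences in B-CPAP were 0.25 for Ragulator and Rag genes, -0.07 for hydrolases and -0.03 for membrane genes, and in TPC-1 -0.02, -0.07 and 0.01.

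Between the lines, limma called 13 of 29 hydrolase genes higher in B-CPAP and 8 lower, and 7 of 20 membrane genes higher and 5 lower. It called 5 of 13 Ragulator and Rag genes higher and 2 lower, 1 of 4 TLDc genes higher and 3 lower, and 1 of 3 MiT/TFE genes lower. Of all genes, 29.9% were called higher and 32.8% lower. The last was TFEB, at 2.38 and 2.54 TPM in B-CPAP against 12.01 and 12.18 TPM in TPC-1 (-1.92 ± 0.16 SE, limma adjusted p = 0.000503). RRAGD, for a Rag GTPase, stood at 60.9 and 49.6 TPM against 1.95 and 2.51 TPM (4.12 ± 0.18 SE, limma adjusted p = 8.8e-05). GAA, the acid alpha-glucosidase, stood at 2.76 and 2.97 TPM against 49.7 and 60.9 TPM (-3.86 ± 0.13 SE, limma adjusted p = 5.64e-05). NPC1, which exports cholesterol from lysosomes, stood at 49.98 and 51.8 TPM against 378.1 and 363.4 TPM (-2.84 ± 0.08 SE, limma adjusted p = 3.47e-05). In the other direction, the sialidase NEU1 and its partner CTSA were 2.16 ± 0.08 and 1.88 ± 0.08 higher (limma adjusted p = 7.21e-05 and 7.87e-05). Lower and higher genes thus stood side by side within the lists. TFE3, in contrast to TFEB, stood at 92.1 and 114.4 TPM against 98.3 and 108.0 TPM and was not called (limma adjusted p = 0.956).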

How the data were processed

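The data are RNA-seq levels of B-CPAP and TPC-1 at 40 °C and 37 °C, 4 libraries with 1 per group. The deposited table holds TPM per Ensembl gene, made by the authors. Per the labels' protocols, RNeasy Plus kits gave the RNA and a TruSeq RNA v2 kit, which does not mark strand, gave the libraries. Per the submitters' processing notes, FastQC, MultiQC, Trimmomatic 0.38, featureCounts 2.0.0 and GRCh38 were used; the sources used here give neither aligner nor annotation release.

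Symbols came from a name table, and positions, exon lengths, GC content and gene types from GENCODE 29, which held 58611 (99.5%) of the IDs. Reads were estimated from TPM times exon length, since 90.6 to 92.2% of the values up to 20 reads came to a whole read (tolerance 0.02), as did 66.0 to 67.8% of those from 20 to 200. Genes averaging 1 TPM or more (14912, of which 11824 protein-coding) were analysed as log2(TPM + 1). Lines were compared with limma 3.58.1 (R 4.3.3), temperature as a block, a trend on intensity, two-sided p-values and the Benjamini-Hochberg adjustment. The fit was also run on simulated data with independent normal noise of its own estimated variance. That run cannot check how real cultures vary. GC adjustment subtracted a lowess curve (fraction 0.3) of each library's deviation on GC content of protein-coding genes (statsmodels 0.14.6). Members and lists were chosen with earlier results of these data known. Members with a mean of at least 1 TPM were named. Values in all libraries were given for those 1.5-fold apart at 40 °C in either line, for the main paralogs, with the others by their share or range, for the 5 farthest apart each way between lines, and for ATP6V0C and ATP6V1G1; some others were added after their values were seen. Of the other lists, genes named are among the 2 farthest apart each way by temperature or line. Some marker genes are not reported here.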

Additional observations from a re-analysis of the deposited data

How the results depend on the processing

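Depth limits the low members: intervals of ATP6V0A4, ATP6V0D2 and ATP6V1E2 span wide ranges, and members under 1 TPM rest on at most 31 reads. No paired analysis by replicate number was possible because the labels carry no replicate numbers and each group holds 1 library; the line comparison pairs libraries by temperature alone. The count of members 1.5-fold lower in TPC-1 was 1, and it was 0 at a pseudocount of 5, without mitochondrially encoded genes, adjusted for GC content and at 2-fold. The count higher in TPC-1 was 0, and 4 at the lowest fold threshold tried. The count higher in B-CPAP was 6, and it was 2 at a pseudocount of 5 and when median centred, 3 when quantile normalized, and 0 adjusted for GC content and at 2-fold. The count lower in B-CPAP was 1, and it was 2 with no filter on low values, 4 when median centred, 3 when quantile normalized, 5 at that lowest threshold, and 0 adjusted for GC content and at 2-fold. The V0 median in B-CPAP was -0.25, and -0.44 when median centred. The V1 median in B-CPAP was 0.15, and it was 0.031 with no filter on low values, -0.036 when median centred and -0.15 adjusted for GC content. Of the line comparison's 13 higher and 7 lower members, limma called 0 and 0 with no filter, where 19 of 35 members had an unadjusted p under 0.05. Leaving out 1 library, it called 2 to 8 members higher and 2 to 6 lower, of which 1 (DMXL2, without B-CPAP at 40 °C) was not called with all libraries, and each fit without a TPC-1 library called 2 and 2. Dropping the temperature block left 15 of 20 called. The shares of all genes called with no filter, or with 1 library left out, were not counted. The cause of these changes was not tested.

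Shares by estimated reads, which are not per length, differed from shares of TPM. TCIRG1 took 5.93 and 6.66% of a-subunit reads in B-CPAP and 49.3 and 52.7% in TPC-1, and ATP6V0A1 73.2 and 77.3% in B-CPAP and 42.0 and 39.6% in TPC-1. Quantile normalized, the shares in B-CPAP at 37 °C were 68.4% for ATP6V0A1 and 16.3% for TCIRG1. Single-member temperature differences, which have no test, changed sign in 23 cases under median centring, quantile normalization or removal of mitochondrially encoded genes. The cases lie in 11 members, among them ATP6V1B2, ATP6V1E1, ATP6V1H, ATP6V0E1 and, in TPC-1 by quantile normalization, DMXL2.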
